A study of Mus musculus with 12 samples.

Results

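Aminoacyl-tRNA synthetases join each amino acid to its own tRNA, the step that sets which amino acid a codon receives. Members were taken from a list of 36 gene symbols and found by symbol among the 18322 genes of the array. Of these, 35 were found, and the remaining 1 was not analysed here. By symbol, 19 members were cytosolic (no final 2) and 16 were mitochondrial (ending in 2).

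The arrays compared 3 lines of IB10 (E14) mouse embryonic stem cells grown on gelatin in serum with LIF. Cells had been infected with lentiviral pLKO-puro with a hairpin that has no target (the control), shKdm5c#1 or shKdm5c#2, and puromycin selection began 24 h after the last infection. Each hairpin is represented by 1 polyclonal line of pooled surviving colonies with 4 cultures, A to D, so the p-values rest on differences among cultures of the same line and do not separate a hairpin from other differences between lines. Every array paired 1 culture with the same reference, RNA from IB10 cells that had not been treated, with the culture in Cy3 for A and C and in Cy5 for B and D. All values below are log2 ratios of culture over IB10 reference with the fitted dye effect removed, or differences of those ratios between lines. They come from the brightest probe of each gene, and a gene was called when its limma p, adjusted by Benjamini-Hochberg over all genes, was under 0.05. In such bulk samples, fewer cells of a type and less RNA per cell cannot be told apart.

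Cytosolic enzymes serve the ribosomes that translate nuclear mRNAs, and several of them sit together with scaffold proteins in the multisynthetase complex. Mitochondrial enzymes, also encoded in the nucleus, charge the tRNAs with which mitochondria make the few respiratory chain proteins of their own genome. Gars and Kars, counted here as cytosolic by symbol, are known to encode the mitochondrial form of their enzyme as well. In mammals a shortage of amino acids raises translation of the transcription factor Atf4, which is known to activate genes of amino acid synthesis and transport and several cytosolic synthetase genes. Kdm5c, the gene both hairpins target, encodes an X-linked demethylase of histone H3 lysine 4.

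Kdm5c itself stood at 0.048, 0.038, 0.044 and -0.052 in control cultures A to D, at -0.57, -0.48, -0.75 and -0.69 with shKdm5c#1 and at -0.64, -0.67, -0.69 and -0.70 with shKdm5c#2. All knockdown cultures lay below the 4 control cultures, a difference of -0.64 ± 0.050 (SE, adjusted p = 1.66e-07 in limma) and -0.70 ± 0.050 (adjusted p = 2.98e-08). On every array 84.4 to 96.4 percent of gene spots were above background in the channel of the culture. The brightest probe of 34 of the 35 members was above background on all arrays in both channels, the exception being Wars2, and 4 cultures per line limit the precision to a median SE of 0.04 for a difference between lines. Culture D of shKdm5c#2 stood apart, with the largest median residual of the 12 arrays (0.044 against 0.025 to 0.037), so counts are also given without it.

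With shKdm5c#1, more cytosolic synthetases rose than fell, and the shifts were small. Relative to the control line, 9 of 19 were higher (47.4 percent, against 9.01 percent of all genes) and 2 were lower (10.5 percent, against 9.66 percent of all genes). The median over the 19 members was 0.11, where that of all genes was -0.0018, and the largest difference in either direction was 1.22-fold. The enzymes that rose were those for alanine (Aars), cysteine (Cars), glycine (Gars), isoleucine (Iars), asparagine (Nars), serine (Sars) and threonine (Tars), Eprs, which charges both glutamate and proline tRNAs, and Farsb, the beta subunit of the phenylalanine enzyme. Those for arginine (Rars) and tyrosine (Yars) fell. The counts of 9 and 2 were the same without culture D of shKdm5c#2. They fell to 5 and 2 without culture B or culture C of shKdm5c#1, and to 6 and 2 without control culture C or D. They also fell to 6 and 2 with the Cy3 arrays alone, to 3 and 2 with no dye term, and to 0 with the Cy5 arrays alone or with arrays centred on their median in place of loess. The class median stayed positive in each of these fits.

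Cars stood at -0.025, 0.080, -0.061 and -0.014 in the control cultures, at 0.26, 0.26, 0.20 and 0.20 with shKdm5c#1 and at 0.18, 0.20, 0.25 and 0.077 with shKdm5c#2. Every shKdm5c#1 culture was above every control culture, while culture D of shKdm5c#2 fell within the control range. The difference from control was 0.23 ± 0.042 with shKdm5c#1 (1.18-fold, adjusted p = 0.000712) and 0.18 ± 0.042 with shKdm5c#2 (adjusted p = 0.00394). Tars read -0.016, 0.044, -0.046 and -0.015 in control, 0.23, 0.24, 0.21 and 0.20 with shKdm5c#1 and 0.16, 0.24, 0.19 and 0.023 with shKdm5c#2. It showed the same arrangement, with culture D of shKdm5c#2 alone among the controls, and its differences were 0.23 ± 0.042 (adjusted p = 0.000951) and 0.16 ± 0.042 (adjusted p = 0.0106). By its brightest probe the alanine enzyme separated all 3 lines: Aars ratios were 0.013, 0.11, -0.039 and -0.14 in control, 0.20, 0.21, 0.15 and 0.17 with shKdm5c#1 and 0.27, 0.23, 0.30 and 0.31 with shKdm5c#2. Aars rose by 0.20 ± 0.045 (adjusted p = 0.00516) and by 0.29 ± 0.045 (1.22-fold, adjusted p = 0.000132). Its knockdown lines did not overlap, yet their own difference of -0.097 was not called (adjusted p = 0.167, 95 percent interval -0.19 to -0.0015). Another probe of Aars, nearly as bright (mean log2 intensity 10.06 against 10.10), was called as well, at 0.12 and 0.11. By that probe the difference between the knockdown lines was 0.0075 (adjusted p = 0.945 over all probes). The separation of those lines thus depends on the choice of probe. Dimmer probes of Aars read -0.18, 0.11 and 0.023 with shKdm5c#1 and -0.098, 0.13 and 0.020 with shKdm5c#2, none of them called. With the mean of its probes Aars was at 0.054 with shKdm5c#1, where the call was lost, and at 0.091 with shKdm5c#2.

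Rars and Yars went the other way with shKdm5c#1. Rars stood at -0.078, 0.071, -0.052 and -0.12 in control and at -0.28, -0.35, -0.35 and -0.36 with shKdm5c#1, with no overlap, and fell by 0.29 ± 0.059 (adjusted p = 0.00203). With shKdm5c#2 it read -0.15, 0.091, 0.021 and -0.21, a spread that took in the whole control range, and its difference from control was -0.017 (adjusted p = 0.895). Yars read -0.015, 0.038, -0.071 and -0.042 in control, -0.24, -0.19, -0.29 and -0.27 with shKdm5c#1 and 0.087, 0.15, 0.14 and -0.079 with shKdm5c#2. It fell by 0.23 ± 0.047 with shKdm5c#1 (adjusted p = 0.00261), where all cultures lay below control, and its difference with shKdm5c#2 was 0.097 (adjusted p = 0.173), with 3 of 4 cultures above control.

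**Figure D1:**
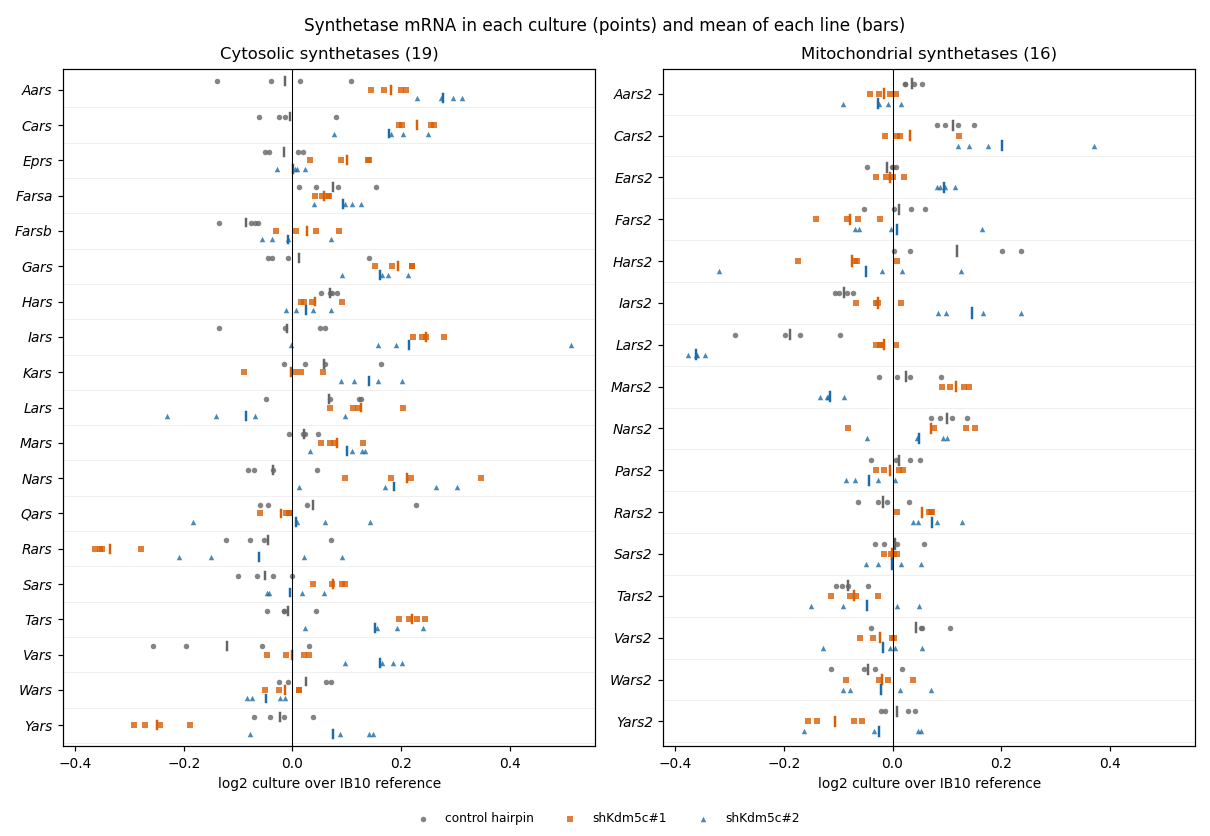
Log2 ratio of culture over IB10 reference, dye effect removed, for each member in the 4 cultures of each line (points), with the mean of the line as a short bar. Aars, Cars, Nars and Tars lie to the right of the control cultures in the shKdm5c#1 line, Rars and Yars lie to the left of them, and Lars2 separates all 3 lines.

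With shKdm5c#2, 6 of 19 cytosolic members were higher (31.6 percent, against 9.96 percent of all genes) and 0 were lower (against 12.3 percent of all genes). Aars, Cars, Gars, Nars and Tars, which the first hairpin also raised, were among them, together with the valine enzyme Vars. The contrasts of the hairpins share the 4 control cultures, so the values are set side by side and the recurrence of a gene is not read as independent. The median over the members was 0.080, against -0.0042 for all genes. Without culture D of shKdm5c#2 the counts became 8 higher and 1 lower. They were 6 and 1 with the Cy3 arrays alone and 2 and 0 with no dye term, and no member was called with the Cy5 arrays alone or with median centring.

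Vars read -0.056, 0.031, -0.20 and -0.26 in control, -0.047, 0.021, 0.031 and -0.011 with shKdm5c#1 and 0.17, 0.096, 0.19 and 0.20 with shKdm5c#2. The shKdm5c#2 cultures were above all others, and Vars rose by 0.28 ± 0.052 in that line (adjusted p = 0.000762), while its difference with shKdm5c#1 was 0.12 (adjusted p = 0.145). Gars differed from control by 0.18 ± 0.043 with shKdm5c#1 (adjusted p = 0.00671) and by 0.15 ± 0.043 with shKdm5c#2 (adjusted p = 0.0198). Without shKdm5c#2 culture C or any of control cultures A, C and D, the second of those calls was lost. Nars was higher by 0.25 ± 0.061 and by 0.22 ± 0.061 (adjusted p = 0.00887 and 0.0139), and the shKdm5c#2 call ended when culture C of that line was left out. Iars rose by 0.26 ± 0.078 with shKdm5c#1 (adjusted p = 0.0301) and differed by 0.22 ± 0.078 with shKdm5c#2 (adjusted p = 0.0506), where its cultures ran from -0.0031 to 0.51, the high value being culture D.

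Smaller shifts were found for Eprs (0.12, adjusted p = 0.0259), Sars (0.12, adjusted p = 0.0207) and Farsb (0.11, adjusted p = 0.0485) with shKdm5c#1. The Farsb call was lost in 9 of the 12 fits that each left out 1 culture, that of Iars in 6, and those of Eprs and Sars in 4 each. With shKdm5c#2 the differences of Eprs, Sars and Farsb were 0.018, 0.047 and 0.078, none of them called. The remaining cytosolic members passed the test with neither hairpin: Farsa, the alpha subunit of the phenylalanine enzyme, Hars (histidine), Kars (lysine), Lars (leucine), Mars (methionine), Qars (glutamine) and Wars (tryptophan). Their differences ran from -0.061 (Kars) to 0.060 (Mars) with shKdm5c#1 and from -0.15 (Lars) to 0.083 (Kars) with shKdm5c#2.

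**Figure D2:**
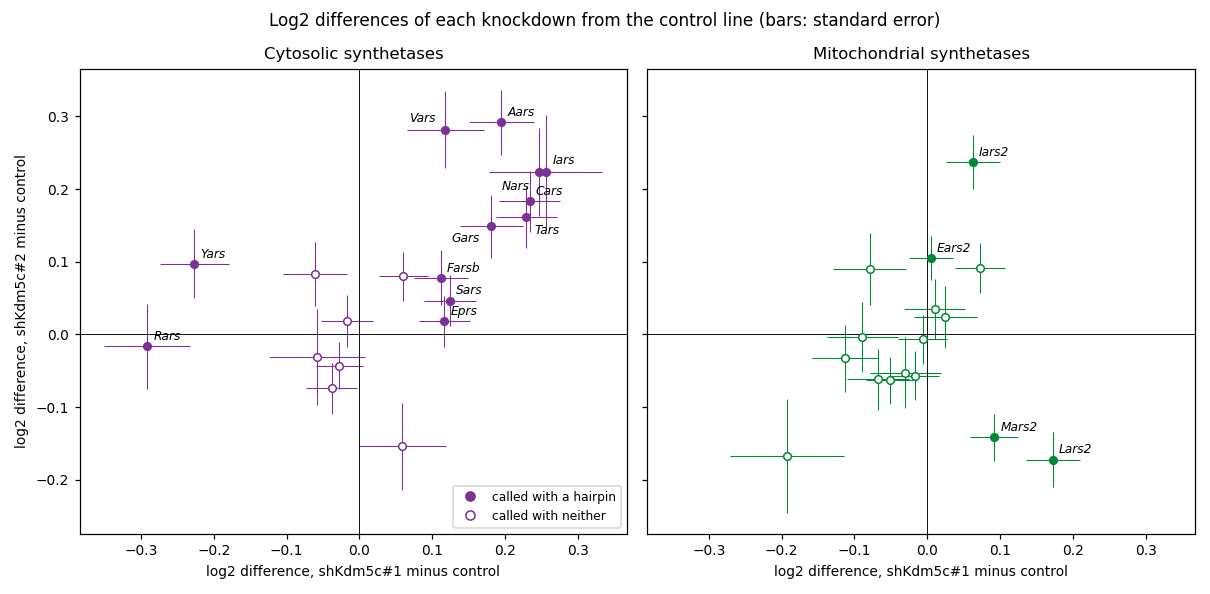
Log2 difference from the control line with shKdm5c#1 (horizontal axis) and with shKdm5c#2 (vertical axis) for cytosolic (left) and mitochondrial (right) members, with standard errors. Filled points were called with at least 1 hairpin, and both axes use the same 4 control cultures. Aars, Cars, Gars, Iars, Nars and Tars lie to the right of and above 0, and Lars2 lies at 0.17 and -0.17.

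Sequence upstream of the genes was read from RefSeq promoter windows (GRCm38.p6, 250 bases before to 50 after each annotated start), which were given for 26 of the 35 members. None was given for Cars or Nars, so their upstream letters were not read. Aars, Gars and Tars are shown because their mRNA rose with each hairpin and because each holds, in the 150 bases before its start, the letters TGATGNAA on the opposite strand. These letters, searched on both strands, are the composite site that Atf4 is known to bind with a C/EBP partner. The motif was chosen with the expression results known, and a match describes the letters only. Capitals mark the match, read 5′ to 3′ on the strand of the gene. The windows shown are chr8:111033692-111033841 on the plus strand for Aars, chr6:55037851-55038000 on the plus strand for Gars and chr15:11399659-11399808 on the minus strand for Tars.
Aars: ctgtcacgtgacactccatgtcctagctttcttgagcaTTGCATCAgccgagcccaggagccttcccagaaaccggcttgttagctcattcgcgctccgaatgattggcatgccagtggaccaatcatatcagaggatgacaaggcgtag
Gars: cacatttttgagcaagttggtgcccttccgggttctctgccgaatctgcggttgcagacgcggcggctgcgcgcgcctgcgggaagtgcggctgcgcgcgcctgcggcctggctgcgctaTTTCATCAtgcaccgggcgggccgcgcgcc
Tars: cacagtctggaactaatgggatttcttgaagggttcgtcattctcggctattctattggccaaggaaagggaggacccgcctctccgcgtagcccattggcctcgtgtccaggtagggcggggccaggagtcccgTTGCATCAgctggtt

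The first base of the match lay 112 bases before the start in Aars, 30 in Gars and 15 in Tars. Aars held a further match 9 bases past the start, and Iars and Yars held one 7 and 3 bases past it. In all, 5 of the 12 cytosolic members with a window held these letters, among them Yars, which fell with shKdm5c#1, and 0 of the 14 mitochondrial members with a window did. Over all 32851 windows the share was 3.97 percent. The letters GCATGCGC, the core that the factor NRF1 is known to bind, were in 3 mitochondrial windows (Rars2, Vars2 and Wars2), in 0 cytosolic ones and in 2.71 percent of all windows. The letters CCGGAAGT, which ETS factors are known to bind, were in the windows of Farsa, Mars and Rars2 and in 3.89 percent of all windows. None of Farsa, Mars, Rars2, Vars2 and Wars2 was called in either knockdown contrast.

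The 7 measured synthetases of the multisynthetase complex (Eprs, Iars, Kars, Lars, Mars, Qars and Rars) and the 12 measured enzymes outside it, called free here, had different counts. Of all genes, 9.01 percent were higher and 9.66 percent lower with shKdm5c#1, and 9.96 and 12.3 percent with shKdm5c#2. With shKdm5c#1, 7 of 12 free enzymes were higher (58.3 percent) and 1 was lower, with a median of 0.12, and 2 of 7 complex members were higher (28.6 percent) and 1 was lower, with a median of 0.059. With shKdm5c#2, 6 free enzymes were higher (50 percent) and 0 lower (median 0.12), and 0 complex members were called (median 0.018), although Eprs, Iars, Lars, Mars and Qars each had a dimmer probe that was called higher. Dimmer probes of Lars and Mars were called higher with shKdm5c#1 too. The counts of complex members thus depend on the choice of probe with each hairpin, and the difference between the groups was not tested. By culture, the median of the free enzymes was -0.015, 0.045, -0.053 and -0.039 in control, 0.088, 0.079, 0.076 and 0.052 with shKdm5c#1 and 0.14, 0.13, 0.16 and 0.055 with shKdm5c#2. Each knockdown culture stood above each control culture in that median. For the complex members the medians were -0.0056 to 0.028 in control, 0.032 to 0.077 with shKdm5c#1 and 0.021 to 0.090 with shKdm5c#2, and the control range overlapped that of shKdm5c#2.

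**Figure D3:**
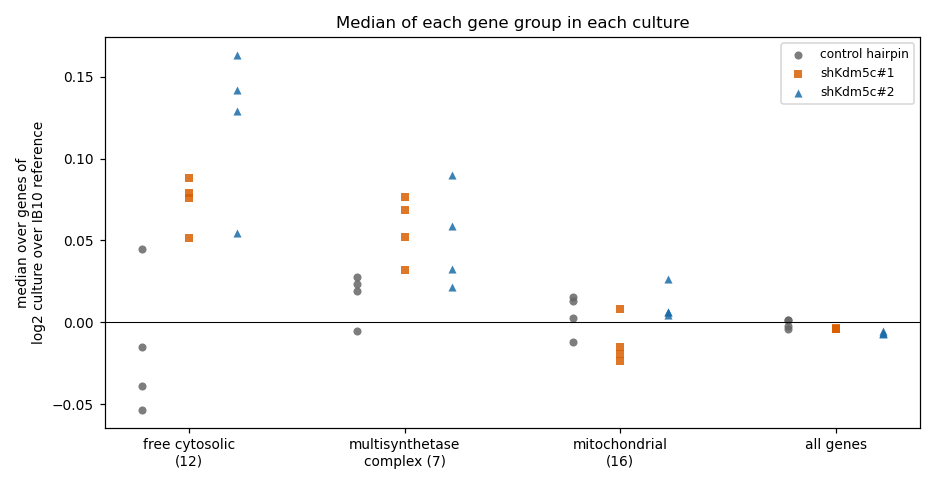
Median log2 ratio of culture over IB10 reference in each of the 12 cultures, over the 12 free cytosolic enzymes, the 7 measured synthetases of the multisynthetase complex, the 16 mitochondrial enzymes and all 18322 genes. The free cytosolic medians of the knockdown cultures (0.052 to 0.16) lie above those of the control cultures (-0.053 to 0.045), while the mitochondrial medians stay between -0.024 and 0.027.

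The mitochondrial synthetases showed no shared direction. With shKdm5c#1, 1 of 16 was higher (6.25 percent) and 0 were lower, and with shKdm5c#2, 2 were higher and 2 lower (12.5 percent each way), shares near those of all genes. The class medians were -0.012 and -0.020. Mitochondrial probes tended to be dimmer. The mean log2 intensity of the brightest probe ran from 6.90 (Wars2) to 12.1 (Lars2) among mitochondrial members. Among cytosolic members it ran from 9.35 (Wars) to 13.1 (Lars). The part of brightness in the difference between the classes was not tested. The members called were Lars2 (leucine) with each hairpin, and Iars2 (isoleucine), Ears2 (glutamate) and Mars2 (methionine) with shKdm5c#2. Without culture D of shKdm5c#2 the shKdm5c#2 counts were again 2 and 2, and the shKdm5c#1 counts were 1 higher and 2 lower. Without control culture D the shKdm5c#1 counts were 2 and 0.

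Lars2 was the one member called in opposite directions. It stood at -0.20, -0.097, -0.17 and -0.29 in control, at -0.019, -0.031, -0.023 and 0.0070 with shKdm5c#1 and at -0.36, -0.38, -0.36 and -0.35 with shKdm5c#2. No line overlapped another, and control lay between the knockdown lines. Lars2 rose by 0.17 ± 0.038 with shKdm5c#1 (adjusted p = 0.00358) and fell by 0.17 ± 0.038 with shKdm5c#2 (adjusted p = 0.00289). Both calls were kept in every fit that left out 1 culture and were lost with median centring and with the Cy5 arrays alone. Lars2 has a single probe on the array.

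Mars2 read 0.032, 0.0076, -0.025 and 0.088 in control, 0.13, 0.11, 0.14 and 0.092 with shKdm5c#1 and -0.090, -0.12, -0.13 and -0.12 with shKdm5c#2. Its knockdown lines lay on opposite sides of control, with a fall of 0.14 ± 0.033 in shKdm5c#2 (adjusted p = 0.00442) and a difference of 0.092 in shKdm5c#1 that was not called (adjusted p = 0.0646). Iars2 stood at -0.072, -0.098, -0.11 and -0.084 in control, -0.030, -0.068, 0.015 and -0.027 with shKdm5c#1 and 0.17, 0.099, 0.084 and 0.24 with shKdm5c#2. The shKdm5c#2 cultures were above all others, and Iars2 rose by 0.24 ± 0.037 there (1.18-fold, adjusted p = 0.000159), against 0.063 with shKdm5c#1 (adjusted p = 0.297). Ears2 values were 0.0060, 0.00086, -0.0017 and -0.047 in control, -0.012, 0.00015, -0.031 and 0.021 with shKdm5c#1 and 0.082, 0.097, 0.11 and 0.087 with shKdm5c#2. The last line stood apart from the others by 0.11 ± 0.030 over control (adjusted p = 0.0172), a call lost without control culture D.

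Hars2, the mitochondrial histidine enzyme, had wide scatter and no call. It read 0.031, 0.24, 0.20 and 0.0021 in control, -0.17, 0.0079, -0.069 and -0.065 with shKdm5c#1 and -0.020, 0.13, 0.018 and -0.32 with shKdm5c#2, with differences of -0.19 ± 0.078 and -0.17 ± 0.078 (adjusted p = 0.106 and 0.155). Yars2 (tyrosine) was at -0.014, 0.029, -0.022 and 0.040 in control, -0.070, -0.14, -0.16 and -0.056 with shKdm5c#1 and -0.034, 0.046, 0.052 and -0.16 with shKdm5c#2. Its shKdm5c#1 cultures were below control, but the difference of -0.11 was not called (adjusted p = 0.101). The others, Aars2 (alanine), Cars2 (cysteine), Fars2 (phenylalanine), Nars2 (asparagine), Pars2 (proline), Rars2 (arginine), Sars2 (serine), Tars2 (threonine), Vars2 (valine) and Wars2 (tryptophan), passed the test with neither hairpin. Their differences ran from -0.089 (Fars2) to 0.072 (Rars2) with shKdm5c#1 and from -0.063 (Aars2) to 0.091 (Rars2) with shKdm5c#2. RefSeq also lists Vars2 as an older name of Vars, so which of these genes the Vars2 probes measure was not settled here.

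Set against each other, the knockdown lines differed for 10 members. Of the cytosolic enzymes, 1 was higher in shKdm5c#1 than in shKdm5c#2 (5.26 percent, against 10.1 percent of all genes) and 4 were lower (21.1 percent, against 8.51 percent of all genes). The leucine enzyme Lars was the higher one (0.21 ± 0.060, adjusted p = 0.0191), and Kars (-0.14), Rars (-0.27), Vars (-0.16) and Yars (-0.32) were lower. Of the mitochondrial enzymes, Lars2 (0.34 ± 0.038, adjusted p = 5.97e-06) and Mars2 (0.23 ± 0.033, adjusted p = 7.47e-05) were higher in shKdm5c#1, and Cars2 (-0.17), Ears2 (-0.10) and Iars2 (-0.17) were lower. For Cars, Gars, Nars and Tars the difference between the knockdown lines was not called, with 95 percent intervals of -0.038 to 0.14, -0.059 to 0.12, -0.11 to 0.15 and -0.021 to 0.16. Without culture D of shKdm5c#2, 2 cytosolic members were higher and 2 lower, and 2 mitochondrial members were higher and 4 lower. Of the 10 calls, those of Rars, Yars, Iars2, Lars2 and Mars2 were kept whichever culture was left out, while Vars lost its call in 7 of those 12 fits, Kars and Ears2 in 5, and Lars and Cars2 in 3.

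The control line itself was compared with untreated IB10 cells, whose RNA was taken as 1 preparation with no spread of its own. There, 2 cytosolic members were higher (Farsa and Hars, against 12.6 percent of all genes) and 2 lower (Farsb and Vars, against 13.7 percent), each 10.5 percent of the 19. Among the 16 mitochondrial members 2 were higher (Cars2 and Nars2) and 2 lower (Iars2 and Lars2). Class medians were -0.0082 and 0.0098. Leaving out 1 control culture cut the 4 cytosolic calls to 0 (without C) or 1 (without A, B or D) and the 4 mitochondrial calls to 1 (without C or D) or 2 (without A or B).

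Lars2 was the lowest in that comparison, with -0.19 ± 0.027 over 4 cultures that were all below the reference (adjusted p = 4.71e-05). Iars2 stood at -0.090 ± 0.026 (adjusted p = 0.0171) and Vars at -0.12 ± 0.037 (adjusted p = 0.0243), although 1 of the 4 Vars cultures was above the reference. Cars2 ratios were 0.096, 0.082, 0.15 and 0.12 in control, 0.0076, -0.014, 0.12 and 0.014 with shKdm5c#1 and 0.14, 0.12, 0.18 and 0.37 with shKdm5c#2. All control cultures were above the reference, by 0.11 on average (adjusted p = 0.0269), and the value of culture D of shKdm5c#2 was the highest of the 12. Farsb read -0.14, -0.068, -0.063 and -0.077 in control, 0.085, 0.0070, 0.043 and -0.030 with shKdm5c#1 and -0.057, -0.037, -0.0078 and 0.070 with shKdm5c#2. Its control cultures lay below both knockdown lines and below the reference, by 0.086 on average (adjusted p = 0.0246). Hars was at 0.082, 0.073, 0.069 and 0.052 in control, 0.092, 0.016, 0.035 and 0.021 with shKdm5c#1 and -0.012, 0.038, 0.0058 and 0.071 with shKdm5c#2, and the control mean of 0.069 was above the reference (adjusted p = 0.0346).

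Against the same reference, 10 cytosolic members were higher in the shKdm5c#1 line (against 12.5 percent of all genes) and 2 were lower (against 14.5 percent). In the shKdm5c#2 line 10 were higher (against 11.4 percent of all genes) and 0 lower (against 14.9 percent). The medians were 0.074 and 0.093. Cars, Tars and Aars stood 0.23, 0.22 and 0.18 above IB10 with shKdm5c#1 and 0.18, 0.15 and 0.28 above it with shKdm5c#2, against -0.0051, -0.0082 and -0.014 in the control line. Among mitochondrial members, 1 was higher and 1 lower with shKdm5c#1 (Mars2 and Yars2), and 4 were higher (Cars2, Ears2, Iars2 and Rars2) and 2 lower (Lars2 and Mars2) with shKdm5c#2. Lars2 in shKdm5c#1 was at -0.016 (adjusted p = 0.722), so its rise over control was a rise from below the reference to near it.

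The array carried 76 probes for the 35 members, 12 of which had a single probe, Gars, Nars, Rars, Yars, Lars2 and Mars2 among them. Of the 6 members called with shKdm5c#1 that had further probes, 5 had another called probe of the same sign, the exception being Sars, and 0 had a call of the opposite sign. With shKdm5c#2 this held for 4 of 6, the exceptions being Ears2 and Iars2, again with 0 opposite calls. For Cars both further probes were called with each hairpin (0.28 and 0.32 with shKdm5c#1, 0.20 and 0.25 with shKdm5c#2). Some members looked different by a dimmer probe. Mars was not called by its brightest probe, but its other probe was higher by 0.20 and 0.30 (adjusted p = 0.00281 and 4.81e-05 over all probes). For Eprs, probes at 0.21 and 0.20 were called with shKdm5c#2 where the brightest read 0.018. The second probe of Iars was called with shKdm5c#2 (0.36, adjusted p = 6.01e-06). Lars was the most divided, with -0.15 by its brightest probe and 0.18 by another in shKdm5c#2 (adjusted p = 0.0903 and 0.0117), so its direction is uncertain. With the mean of all probes per gene, 9 cytosolic members were higher and 2 lower with shKdm5c#1. Those 9 are not the same members as by the brightest probe, since Aars and Sars lost their calls. With shKdm5c#2, 9 were higher and 0 lower by that mean.

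**Figure D4:**
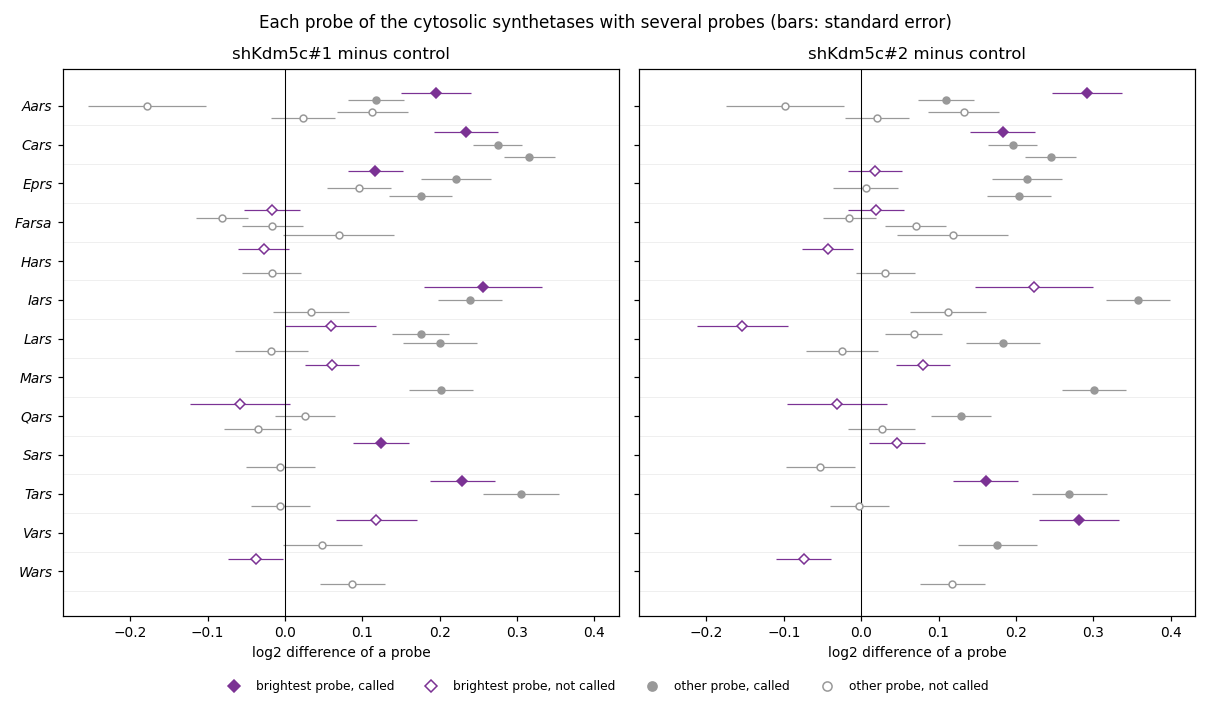
Log2 difference from control, with its standard error, of every probe of the 13 cytosolic members with several probes, for shKdm5c#1 (left) and shKdm5c#2 (right). Diamonds are the brightest probe, circles the others, and filled symbols were called at an adjusted p under 0.05 over all probes. Probes of Cars, Eprs, Iars, Mars and Vars agree in sign. Those of Aars, Farsa, Lars, Qars, Sars, Tars and Wars lie on both sides of 0 with each hairpin, and those of Hars with shKdm5c#2 only.

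Other genes around tRNA charging that passed the test were lower in the knockdown lines. The 13 measured charging factors were scaffolds of the multisynthetase complex, editing enzymes, enzymes that modify a charged tRNA, Trnt1, Mtif2 and Tarsl2. Trnt1 adds the CCA end of a tRNA, and Tarsl2 is a threonine synthetase outside the member list. The line means of Tarsl2 were 0.086 in control, 0.050 with shKdm5c#1 and -0.057 with shKdm5c#2. Of the 13, 0 were higher and 5 lower with shKdm5c#1 (38.5 percent, against 9.66 percent of all genes lower). With shKdm5c#2, 0 were higher and 6 lower (46.2 percent, against 12.3 percent). With shKdm5c#1 the lowest p belonged to Dtd1, which removes D-amino acids from tRNA (-0.22, adjusted p = 0.000143), Aimp1, a scaffold of the complex (-0.21, adjusted p = 0.00261), and Mtif2, the mitochondrial initiation factor that binds the formylated initiator tRNA (-0.21, adjusted p = 0.0032). With shKdm5c#2 it belonged to Eef1e1, another complex scaffold (-0.22, adjusted p = 0.000474), Pstk, a kinase of selenocysteine tRNA charging (-0.21, adjusted p = 0.00214), and Mtfmt, which formylates mitochondrial initiator tRNA (-0.16, adjusted p = 0.0126). Line means in control, shKdm5c#1 and shKdm5c#2 were 0.059, -0.14 and -0.10 for Mtfmt, and -0.026, -0.23 and 0.028 for Mtif2. In the same order they were 0.095, -0.13 and 0.015 for Dtd1, and 0.081, -0.13 and -0.052 for Aimp1. For Eef1e1 they were 0.021, 0.010 and -0.20, and for Pstk 0.038, -0.0089 and -0.18. The complex scaffold Aimp2 fell by 0.13 with shKdm5c#1 (adjusted p = 0.0137) and was at 0.072 with shKdm5c#2 (adjusted p = 0.152).

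Of 11 measured genes that process or modify mitochondrial tRNAs, 0 were higher and 4 lower with each hairpin (36.4 percent, against 9.66 percent of all genes lower with shKdm5c#1 and 12.3 percent with shKdm5c#2). The cleavage enzyme Elac2 (-0.23) and the pseudouridine synthase Pus1 (-0.23) fell with shKdm5c#1. The methyltransferase Nsun3 fell by 0.19 with shKdm5c#1 and by 0.35 with shKdm5c#2 (adjusted p = 0.00739 and 2.54e-05). Trmt5 (-0.18) and Cdk5rap1 (-0.13), which modify tRNA bases, fell with shKdm5c#2. Trmt5 cultures ran from 0.012 to 0.055 in control, -0.11 to -0.071 with shKdm5c#1 and -0.16 to -0.088 with shKdm5c#2. Line means in that order were 0.010, 0.0084 and -0.12 for Cdk5rap1. They were 0.041, -0.18 and -0.079 for Elac2, and 0.060, -0.17 and -0.046 for Pus1. For Nsun3 they were 0.16, -0.031 and -0.19, so the control line stood above the reference and shKdm5c#1 near it.

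Many genes of the amino acid stress response were also higher than in the control line. Of 28 such genes, 18 were higher and 0 lower with shKdm5c#1 (64.3 percent higher, against 9.01 percent of all genes, median 0.20). With shKdm5c#2, 12 were higher and 1 lower (42.9 percent higher, against 9.96 percent of all genes, median 0.097). Against the IB10 reference, 6 of the 28 were higher in the control line (21.4 percent, against 12.6 percent of all genes). There, 10 were lower (35.7 percent, against 13.7 percent). With shKdm5c#1, 19 were higher and 3 lower (67.9 and 10.7 percent, against 12.5 and 14.5 percent of all genes). With shKdm5c#2 they were 15 and 5 (53.6 and 17.9 percent, against 11.4 and 14.9 percent). The list was written with the rise of Atf4 in these data known, so its direction is not independent evidence. Atf4 read -0.49, -0.45, -0.44 and -0.51 in control, 0.65, 0.65, 0.60 and 0.65 with shKdm5c#1 and 0.41, 0.43, 0.53 and 0.49 with shKdm5c#2. Control cultures were below the IB10 reference and knockdown cultures above it, unlike Aars, Cars and Tars, whose control means lay near the reference. Atf4 rose over control by 1.11 ± 0.035 and 0.93 ± 0.035 (adjusted p = 6.36e-12 and 9.83e-12). Of the genes with the lowest p, the stress-induced Nupr1 and the cysteine-forming enzyme Cth rose by 1.02 and 1.08 with shKdm5c#1, and were at 0.24 (adjusted p = 0.000319) and 0.084 (adjusted p = 0.384) with shKdm5c#2. Psat1 of serine synthesis rose by 0.33 and 0.47. The neutral amino acid carrier Slc1a4 rose by 0.35 with shKdm5c#2 (adjusted p = 2.75e-06), and its shKdm5c#1 difference was 0.087 (adjusted p = 0.121). Line means in control, shKdm5c#1 and shKdm5c#2 were -0.14, 0.89 and 0.10 for Nupr1, and -0.46, 0.62 and -0.38 for Cth. In the same order they were -0.032, 0.30 and 0.44 for Psat1, and -0.28, -0.19 and 0.069 for Slc1a4. Between the knockdown lines, 12 of the 28 genes were higher in shKdm5c#1 (42.9 percent, against 10.1 percent of all genes) and 3 were lower (10.7 percent, against 8.51 percent). The synthetases Aars, Cars, Gars, Nars and Tars, the cytosolic members called higher with each hairpin, showed no called difference between those lines. That selection favours members with like changes, and a missing call does not show equal levels. Kars, Lars, Rars, Vars and Yars were called as different between those lines.

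Cell type markers moved with the lines as well, and their part in the synthetase differences was not tested. Their counts stand against 9.01 percent of all genes higher and 9.66 percent lower with shKdm5c#1, and 9.96 and 12.3 percent with shKdm5c#2. Of 9 embryonic stem cell markers, 1 was higher and 3 lower with shKdm5c#1 and 1 higher and 4 lower with shKdm5c#2, where 1 of 9 is 11.1 percent. The mean ratio over that list ran from 0.067 to 0.12 in control, 0.016 to 0.068 with shKdm5c#1 and -0.16 to -0.10 with shKdm5c#2. Primitive streak markers (4 of 6 higher and 1 lower with each hairpin) had means of -0.52 to -0.46 in control, -0.12 to -0.077 with shKdm5c#1 and 0.22 to 0.31 with shKdm5c#2, and trophectoderm markers (5 and 4 of 6 higher, 0 lower) had means of -0.60 to -0.55 in control, 0.083 to 0.14 with shKdm5c#1 and -0.19 to -0.094 with shKdm5c#2. Extraembryonic endoderm markers (0 of 8 higher, 4 and 5 lower) had means of 0.34 to 0.42 in control, -0.035 to 0.018 with shKdm5c#1 and -0.059 to -0.039 with shKdm5c#2. Of 7 fibroblast markers, 2 were higher with each hairpin, and 4 and 3 were lower. Their means were -0.14 to -0.055 in control, -0.26 to -0.20 with shKdm5c#1 and -0.34 to -0.28 with shKdm5c#2. Their medians did not follow that order, at -0.21 to -0.097, -0.22 to -0.18 and -0.16 to -0.10. Line means in the same order were 0.087, -0.66 and -1.37 for Col1a1, but -0.41, -0.053 and -0.016 for Thy1. Of 4 neuroectoderm markers, 1 was higher and 1 lower with each hairpin. Their means were 0.096 to 0.15 in control, -0.043 to 0.083 with shKdm5c#1 and 0.086 to 0.12 with shKdm5c#2. The control medians were -0.024 to 0.083, and Pax6 stood at 0.59 in control.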

How the data were processed

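RNA of 12 cultures was hybridised on 2-colour spotted oligonucleotide arrays. The deposited raw files hold spot intensity and local background for each dye, per the file headers, and derived files hold intensity as normalized by the authors. The deposited value table holds log2 of the authors' normalized Cy5 over Cy3 signal, which differed from the derived files by at most 5e-10, with column medians of -0.00265 to 0.0164 and a method not given in the sources used here. Members and gene lists were chosen with earlier results of these data known.

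Background was corrected in limma 3.58.1 (R 4.3.3) with normexp (offset 50) on mean signals, each array was normalized by loess with the 4046 control spots at weight 0, and ratios were turned to sample over reference. Of the probes, 34186 had a symbol and 6988 none. The brightest probe stood for each of 18322 genes, with no filter on intensity. The linear model, over all 12 arrays, had 1 coefficient for each of the 3 lines and 1 for the dye (8 residual and 7.64 prior degrees of freedom), and adjusted p-values are limma's, over all genes. The fit was tested on simulated data. Spots were counted as above background where the signal exceeded the local background by 2 of its SDs.

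Correlations within a line ran from r = 0.508 to 0.847, no pair of arrays held identical values, and the lowest correlation between any 2 arrays, with dye kept, was -0.23. Deviations of cultures with the same letter correlated at r = -0.28 to 0.28, over 0.1 in 4 of 12 pairs. With the other letter of the same dye, r ran from -0.46 to 0.070. Between control and knockdown lines, cultures B and D gave 0.11 to 0.28 by the same letter and -0.46 to -0.22 by the other. Between the knockdown lines, A and C gave -0.27 and -0.28 by the same letter and 0.070 and -0.027 by the other. The main model did not pair cultures by letter, and whether letters pair them was not settled. Each member was named, and values in every culture were given for the 4 members per class with the lowest p in each knockdown contrast, the 3 lowest in control against IB10 and any member with opposite calls. From the other lists, the 3 genes with the lowest p per knockdown contrast were named, and Aimp2 was added after its values were seen. Promoter windows came from RefSeq (32851 windows, 27025 genes), and all 35 members matched its gene table, 34 by symbol and Mars by its newer symbol. Alternatives changed the background, normalization, probe choice, intensity filter, dye term, dye subset, replicate block and cultures included. Python 3.11.15 with matplotlib 3.10.9 drew the figures.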

Additional observations from a re-analysis of the deposited data

Results flagged for a closer look

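In 4 of 105 groups of 4 cultures, 1 culture lay far from the other 3 by Dixon's test, which chance gives in about 1 in 20 groups. Qars in shKdm5c#1 culture A stood at -0.060, with the others at -0.011 to -0.0044. Rars in shKdm5c#1 culture A stood at -0.28, above the others at -0.36 to -0.35. Ears2 in control culture D was -0.047, below the others at -0.0017 to 0.0060. Rars2 in shKdm5c#1 culture D was 0.0090, where the others were all between 0.067 and 0.072.

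The effect of the hairpins differed for 10 members by the limma contrast of shKdm5c#1 minus shKdm5c#2 (adjusted over all genes), in log2: Kars -0.14 (adjusted p = 0.0307), Lars 0.21 (0.0191), Rars -0.27 (0.00322), Vars -0.16 (0.0389) and Yars -0.32 (0.000112) among the cytosolic enzymes. Among the mitochondrial enzymes they were Cars2 -0.17 (adjusted p = 0.0246), Ears2 -0.10 (0.0267), Iars2 -0.17 (0.00297), Lars2 0.34 (5.97e-06) and Mars2 0.23 (7.47e-05). Lars2 and Mars2 had knockdown lines on opposite sides of the control line in every culture.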

How the results depend on the processing

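The 32 member calls in the 3 contrasts between lines kept their direction in every alternative fit, and how many stayed past the threshold varied. All 32 did with no background subtraction and without the dimmest 25 percent of probes, 31 with the deposited normalized ratios and with the culture letter as a replicate block, 29 with the mean of the probes, 22 with the Cy3 arrays alone, 16 with no dye term, 2 with the Cy5 arrays alone and 1 with median centring in place of loess. Leaving out 1 culture kept 24 to 30. The cause of these losses was not tested; the median SE of a cytosolic difference was 0.10 with median centring, 0.074 with Cy5 alone and 0.068 with no dye term. Counts of called members follow, cytosolic then mitochondrial. With shKdm5c#1 against control (11 and 1) they were 0 and 0 with median centring, 5 and 1 with no dye term, 0 and 0 with Cy5 alone, 8 and 2 with Cy3 alone, 11 and 2 with the mean of probes and 10 and 2 with the replicate block, and 7 to 11 and 1 to 3 when 1 culture was left out (7 without shKdm5c#1 B or C). With shKdm5c#2 against control (6 and 4) they were 0 and 0 with median centring, 2 and 3 with no dye term, 0 and 1 with Cy5 alone and 7 and 2 with Cy3 alone, 8 and 5 with the block, and 4 to 9 and 3 to 5 by culture left out. Between the hairpins (5 and 5) they were 0 and 1 with median centring, 2 and 3 with no dye term, 0 and 1 with Cy5 alone and 3 and 2 with Cy3 alone, and 3 to 5 and 3 to 6 by culture left out (3 cytosolic without shKdm5c#1 B, C or D or shKdm5c#2 A or C, 3 mitochondrial without shKdm5c#1 A or B). For control against IB10 (4 and 4) they were 0 and 0 with median centring, 0 and 1 with no dye term, 1 and 1 with Cy5 alone, and 0 to 4 and 1 to 6 by culture left out. For shKdm5c#1 against IB10 (12 and 2) they were 2 and 0 with median centring, 8 and 1 with no dye term, 2 and 0 with Cy5 alone and 14 and 4 with Cy3 alone, and 9 to 12 and 1 to 4 by culture left out (1 without shKdm5c#1 C, 4 without shKdm5c#2 D). For shKdm5c#2 against IB10 (10 and 6) they were 1 and 1 with median centring, 4 and 4 with no dye term and 1 and 3 with Cy5 alone, and 9 to 12 and 5 to 6 by culture left out. Whether same-letter cultures are paired was not settled. A fit with slide or scan as a block was not run, since the files name neither. Reference ratios leave out the spread of the reference RNA.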
